A study of Mus musculus with 28 samples.

Results

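This account covers 5 genes, Nsg2, Ncstn, St3gal5, H1f2 (older symbol Hist1h1c) and Crcp, out of 4799 genes named on a mouse microarray. They were chosen by symbol because earlier results of the same arrays placed them among the genes most raised in fasted livers and outside the classical metabolic pathways of fasting. Each gene had 2 of the 16416 spots, so the set holds 10 spots. All values that compare fasted livers with fed ones therefore describe the genes and are given without a test. The direct pairs of high-fat and control livers took no part in the choice.

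The livers came from 15 mice of the inbred strain C57BL/6, and their amplified RNA was hybridised to 28 arrays with 2 colours each, RNA of 1 mouse in the dye Cy3 against RNA of another in Cy5. All mice were 12 to 16 weeks old and carried no stated genetic change. The 5 control mice ate chow for 2 weeks, the 5 fasted mice ate chow for 2 weeks and then had no food for 16 hours, and the 5 high-fat mice ate a high fat diet for 2 weeks. There were 14 pairs of mice, 4 of fasted with control, 5 of high-fat with control and 5 of fasted with high-fat livers, and each pair was hybridised on 2 arrays with the dyes exchanged. The deposited values are log ratios of the dyes, taken as log2, and both arrays of a dye exchange (a swap) were given the same sign and averaged. Each title names a pair of livers, and the ratio was read as the later-named over the earlier-named one. That direction is likely, not certain, since it rests on the titles and on the dyes listed for the first array of each swap, and the opposite reading would exchange higher and lower throughout. Spot brightness is not analysed here, so the level of a gene, its signal over background and the presence of liver marker transcripts are unknown. Precision is limited by how many pairs there are.

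The genes belong to unrelated cell functions. Nsg2 encodes a small membrane protein of neuronal endosomes that takes part in the recycling of receptors. Ncstn encodes nicastrin, the large glycoprotein subunit of gamma-secretase, the membrane protease that cuts Notch receptors and the amyloid precursor protein. St3gal5 encodes GM3 synthase, the sialyltransferase that adds sialic acid to lactosylceramide and so makes GM3, the parent of most gangliosides. GM3 is known in other work as a membrane lipid that dampens signalling of the insulin receptor. H1f2 encodes the linker histone H1.2, which binds the DNA between nucleosomes. Most transcripts of replication-dependent histone genes end in a stem-loop in place of a poly(A) tail, and the sources used here do not say how the RNA was primed for amplification. Crcp encodes a subunit of RNA polymerase III, which transcribes transfer RNA and 5S ribosomal RNA genes, and the same protein is also known as the receptor component of the peptide CGRP.

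The upstream sequences of 4 of the 5 genes are shown because the genes, all chosen as raised in fasted livers, differ in what lies before their starts. They are the 250 bases before the first listed start of each gene in RefSeq, mouse build GRCm38.p6, read 5′ to 3′ on the gene's own strand. They come from chr11:32000169-32000418 (plus strand) for Nsg2, chr1:172082750-172082999 (minus strand) for Ncstn, chr6:72097358-72097607 (plus strand) for St3gal5 and chr13:23738557-23738806 (plus strand) for H1f2. Capitals mark matches to any of 8 short motifs searched on both strands: AGGTCA, an element of nuclear receptors such as PPARalpha; TGTTTAC, a forkhead site; TGACG, an element of the CREB family; AGAACA, an element of the glucocorticoid receptor; and CACGTG, an E-box. The common promoter elements searched were TATAAA, which is bound by the general factor TBP, the element CCAAT, which is bound by the factor NF-Y, and the GC box GGGCGG, which is bound by factors of the Sp family.
Nsg2: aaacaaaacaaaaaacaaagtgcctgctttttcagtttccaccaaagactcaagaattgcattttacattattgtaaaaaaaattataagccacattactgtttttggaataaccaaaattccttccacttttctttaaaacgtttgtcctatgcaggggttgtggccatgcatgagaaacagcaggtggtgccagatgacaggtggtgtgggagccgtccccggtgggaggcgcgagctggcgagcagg
Ncstn: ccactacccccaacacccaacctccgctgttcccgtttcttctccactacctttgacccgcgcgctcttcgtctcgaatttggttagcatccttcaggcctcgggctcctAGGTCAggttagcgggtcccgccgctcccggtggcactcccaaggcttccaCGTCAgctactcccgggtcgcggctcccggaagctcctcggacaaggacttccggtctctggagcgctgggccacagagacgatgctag
St3gal5: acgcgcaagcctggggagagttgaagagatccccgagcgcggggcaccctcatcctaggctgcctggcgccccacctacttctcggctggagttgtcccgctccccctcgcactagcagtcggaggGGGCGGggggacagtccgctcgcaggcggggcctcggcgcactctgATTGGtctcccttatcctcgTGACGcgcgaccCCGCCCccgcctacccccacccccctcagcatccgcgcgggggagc
H1f2: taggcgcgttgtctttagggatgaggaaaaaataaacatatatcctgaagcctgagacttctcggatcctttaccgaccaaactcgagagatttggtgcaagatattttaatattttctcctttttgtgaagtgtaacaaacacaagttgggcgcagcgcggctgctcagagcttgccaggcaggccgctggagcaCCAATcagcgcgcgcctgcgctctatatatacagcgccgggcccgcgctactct

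The Nsg2 window held 0 matches. The Ncstn window held AGGTCA beginning 140 bases before the start and TGACG, on the other strand, beginning 89 bases before it. The St3gal5 window held GGGCGG at 124 and, on the other strand, at 46 bases before the start, CCAAT on the other strand at 78 bases, and TGACG at 58 bases. The H1f2 window held CCAAT at 54 bases before the start. Of 32851 windows of the same length in the RefSeq table, 14.0% held AGGTCA, 17.8% TGACG, 33.8% CCAAT and 32.7% GGGCGG, and the motifs without a match here were held by 3.17% (TGTTTAC), 16.1% (AGAACA), 6.02% (CACGTG) and 12.4% (TATAAA). The share of G and C was 43.6% for Nsg2, 50.4% for H1f2, 63.2% for Ncstn and 71.6% for St3gal5, against a median of 52.4% over all windows. A match describes the letters only, and neither a match nor its absence says whether a factor binds.

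In the direct pairs of fasted and control livers all 5 genes were higher in the fasted liver of every pair. The mean log2 ratio was 1.96 ± 0.85 for Ncstn, 1.89 ± 0.45 for St3gal5, 1.42 ± 0.22 for Nsg2, 1.41 ± 0.19 for H1f2 and 1.00 ± 0.13 for Crcp (SD, n = 4 pairs). The corresponding folds were 3.9, 3.7, 2.67, 2.65 and 2. Over the 9 pairs that held a fasted mouse, the ratio was above 0 on 18 of 18 arrays for each gene, after the arrays were turned. Being raised in fasted livers was the basis of their choice. In a limma fit over all 14 pairs, 4.15% of the 4799 named genes passed the Benjamini-Hochberg threshold of 0.05 as higher in fasted than in control livers, and 5.54% as lower. The former share is the background of the comparison from which the genes were taken, and nothing is read from their place in it. By fitted ratio Ncstn was number 6, St3gal5 number 7, Nsg2 number 12, H1f2 number 22 and Crcp number 35 among the named genes.

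**Figure D1:**
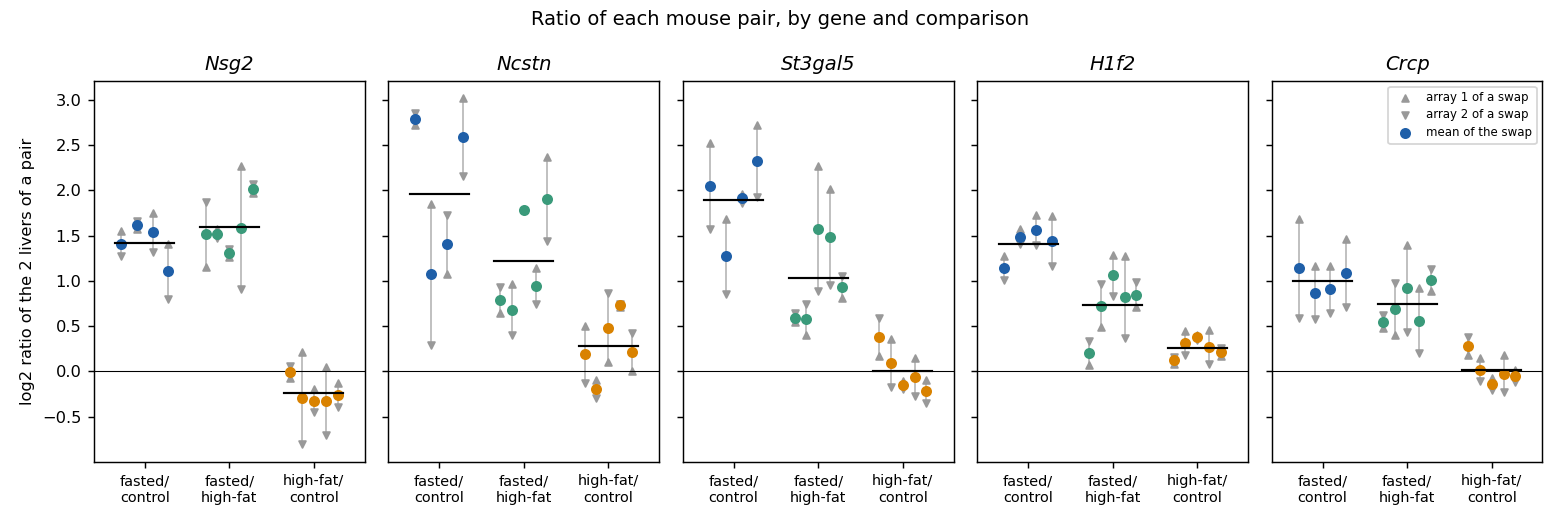
Log2 ratio of each pair of mice for the 5 genes, in 3 comparisons: coloured points are means of a dye swap, grey triangles its 2 arrays and black lines group means. Every fasted pair lies above 0 for every gene, Ncstn spreads most among the fasted and control pairs (1.07 to 2.79), and the pairs of high-fat and control livers lie on both sides of 0, from -0.33 for Nsg2 to 0.73 for Ncstn.

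Nsg2, the endosomal membrane protein gene, was raised by similar amounts over both kinds of fed liver. Its log2 ratio over control was 1.54 for fasted mouse 11, 1.11 for mouse 13, 1.62 for mouse 14 and 1.41 for mouse 15. Over high-fat livers it was 1.59 for mouse 11, 1.52 for mouse 12, 1.31 for mouse 13, 1.52 for mouse 14 and 2.02 for mouse 15. Mouse 13 gave the lowest ratio in both comparisons, and no fasted pair came near 0. The mean over high-fat livers was 1.59 ± 0.26 (SD, n = 5), above the mean over controls. Its 2 spots gave nearly the same values, with a correlation of 0.992 over the 14 pairs and a median gap of 0.05.

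Ncstn, the nicastrin gene, varied most. Its ratio over control was 2.59 for fasted mouse 13 and 2.79 for mouse 15, but 1.41 for mouse 11 and 1.07 for mouse 14. The same division appeared against high-fat livers, where mice 13 and 15 stood at 1.78 and 1.90. Mice 11, 12 and 14 stood at 0.95, 0.79 and 0.68. Mice 13 and 15 were thus above the others against both kinds of fed liver, although the pairs share the fasted mouse's RNA, so a chance value of a mouse enters both. The arrays of the swap of mouse 14 with control 3 disagreed most, at 1.85 and 0.30.

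St3gal5, the GM3 synthase gene, stood at 1.91 over control for fasted mouse 11, 2.32 for mouse 13, 1.27 for mouse 14 and 2.05 for mouse 15. Over high-fat livers the ratio was 1.48 for mouse 11, 0.59 for mouse 12, 1.58 for mouse 13, 0.57 for mouse 14 and 0.94 for mouse 15. The mean over high-fat livers, 1.03 ± 0.48 (SD, n = 5), was well under the mean over control livers. The ranges of the comparisons overlapped only between 1.27 and 1.58.

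H1f2, the linker histone gene, stood at 1.57 over control for fasted mouse 11, 1.44 for mouse 13, 1.49 for mouse 14 and 1.14 for mouse 15. Over high-fat livers it stood at 0.82, 1.06, 0.73 and 0.85 for the same mice and at 0.20 for mouse 12. Every ratio over control was higher than every ratio over high-fat livers, with a mean of 0.73 ± 0.32 (SD, n = 5) for the latter. Linker histone genes are alike in sequence, so the probe can also read close relatives, and the values are uncertain as to the member.

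Crcp, the RNA polymerase III subunit gene, had the smallest ratio of the 5 over control livers. There it was 0.91 for fasted mouse 11, 1.09 for mouse 13, 0.87 for mouse 14 and 1.14 for mouse 15. Over high-fat livers it was 0.56, 0.92, 0.69 and 1.01 for these mice and 0.55 for mouse 12, with a mean of 0.74 ± 0.21 (SD, n = 5). The first arrays of the swaps with controls, on which the fasted liver carried Cy5, averaged 1.37, and the second arrays 0.63. This split between arrays was wide beside the spread between pairs, so the size of the Crcp ratio rests on the averaging of the swap.

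The design also allows a level for each mouse. Of the 15 mice 12 are linked in a closed ring of 12 pairs, 4 mice of each group. The remaining mice, control 1, high-fat 6 and fasted 12, are linked only to each other, in a chain of 2 pairs. Levels were solved by least squares and set relative to the mean control mouse of the same ring or chain, on the log2 scale. For all 5 genes each of the 4 fasted mice of the ring lay above each of the 8 fed mice, which was so for 2.15% of the named genes. Because the genes were chosen for this difference, the count is a description.

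**Figure D2:**
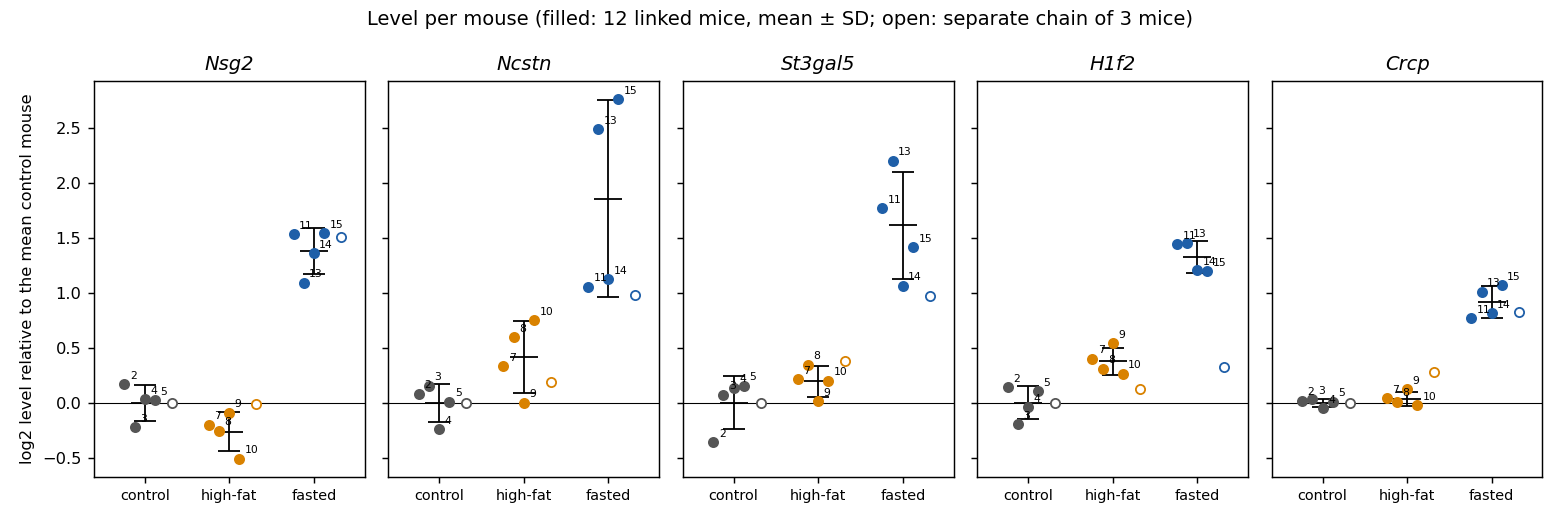
Log2 level of each mouse relative to the mean control mouse, by gene and group: filled points with mouse numbers are the 12 mice of the ring, with mean and SD as bars, and open points the 3 mice of the separate chain. The fasted mice lie above all fed mice of the ring, the fasted Ncstn levels fall into a low and a high pair, and the open fasted point of H1f2 lies far below the filled ones.

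Nsg2 reached 1.53, 1.09, 1.36 and 1.54 in fasted mice 11, 13, 14 and 15 of the ring, a range of 0.45. In the chain, fasted mouse 12 stood at 1.51, like the others. Ncstn reached 1.05, 2.49, 1.12 and 2.76 in the same 4 mice, a range of 1.71, and 0.98 in mouse 12. St3gal5 reached 1.77, 2.20, 1.06 and 1.41, and 0.97 in mouse 12. Ncstn thus separated mice 13 and 15 from mice 11, 12 and 14, whereas Nsg2 did not. For H1f2 the 4 mice of the ring lay close together, at 1.44, 1.46, 1.21 and 1.19, but mouse 12 stood at 0.32 above control 1. That fasted mouse was below the levels of high-fat mice 7 and 9 of the ring, 0.40 and 0.54, though levels of ring and chain rest on different controls. Crcp was at 0.77, 1.01, 0.82 and 1.07, and at 0.83 in mouse 12. The control mice of the ring spread by 0.39 for Nsg2, 0.40 for Ncstn, 0.52 for St3gal5, 0.34 for H1f2 and 0.08 for Crcp from lowest to highest.

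High-fat feeding was the comparison that could be tested, and it asked whether these genes also differed after 2 weeks of a fat-rich diet. The fit uses all 14 pairs, so the fasted pairs behind the choice also enter its high-fat ratio. Its test is therefore not free of the choice. Means of the direct pairs, which hold no fasted mouse, were lower than the fitted ratio for each of the 5 genes. They were 0.28 for Ncstn, 0.26 for H1f2, 0.02 for Crcp, 0.01 for St3gal5 and -0.24 for Nsg2. None of the 5 passed: 0 were called by limma after Benjamini-Hochberg adjustment over all 11457 features, and 2, Nsg2 and H1f2, had an unadjusted p below 0.05. Over the 4799 named genes 0.333% were called in this comparison, and 326 had an unadjusted p below 0.05. The controls are the same mice as in the comparison with fasted livers, so a control mouse with a chance low value would raise both.

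H1f2 was at 0.38 ± 0.10 in high-fat over control livers (SE of the fit, 95% interval 0.16 to 0.60, a 1.3-fold ratio), with an adjusted p of 0.197 in limma. In the direct pairs it was 0.12 for high-fat mouse 6, 0.21 for mouse 7, 0.27 for mouse 8, 0.32 for mouse 9 and 0.38 for mouse 10, above 0 on 10 of 10 arrays. With direct pairs alone the limma adjusted p was 0.689. Each of the 4 high-fat mice of the ring lay above each of the 4 controls, which held for 0.521% of the named genes (2.52% in either direction). H1f2 was the only 1 of the 5 genes to show it. These levels also draw on the fasted pairs behind the choice, so the count is a description. The mean level of the high-fat mice was 0.38, against 0.29 in the 4 direct high-fat over control pairs of the ring. The high-fat over control ratio of H1f2 did not pass the threshold, so it is reported as such.

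Nsg2 was the only gene of the set with a fitted ratio below 0 in high-fat over control livers, at -0.22 ± 0.09 (95% interval -0.40 to -0.04, limma adjusted p = 0.666). The direct pairs gave -0.01 for high-fat mouse 6, -0.26 for mouse 7, -0.33 for mouse 8, -0.30 for mouse 9 and -0.32 for mouse 10. The first arrays of these swaps averaged -0.03 and the second arrays -0.46, so the size rests on the averaging of the swap. The levels of high-fat and control mice overlapped. Ncstn stood at 0.42 ± 0.21 (95% interval -0.02 to 0.86, limma adjusted p = 0.872), with pairs at 0.19, 0.21, 0.73, -0.19 and 0.48 for high-fat mice 6 to 10 in order. The interval does not exclude values up to 0.86. St3gal5 stood at 0.26 ± 0.17 (95% interval -0.10 to 0.63, limma adjusted p = 0.997), and its direct pairs averaged 0.01 ± 0.24 (SD, n = 5). Crcp stood at 0.09 ± 0.08 (95% interval -0.08 to 0.26, limma adjusted p = 0.997), with 5 of 10 arrays above 0. Only 2 of the 5 direct pairs were above 0 for St3gal5 (median -0.06) and likewise for Crcp (median -0.03).

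**Figure D3:**
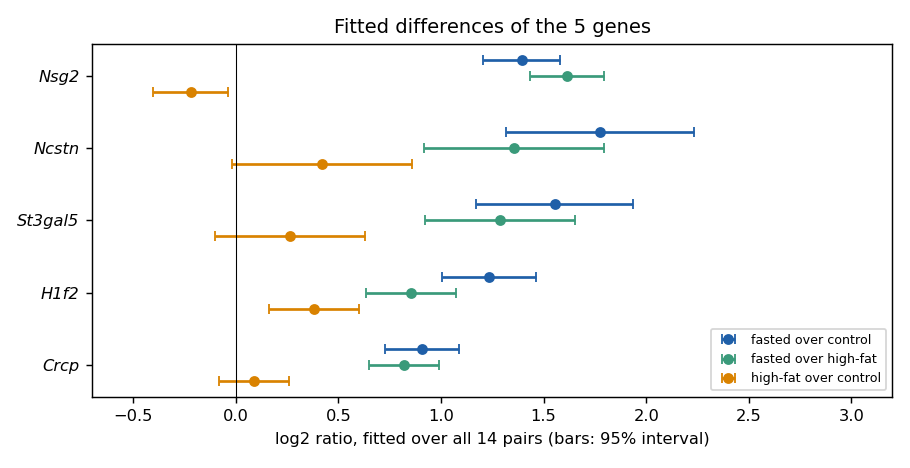
Fitted log2 ratio of the 5 genes with its 95% interval in 3 comparisons, from a limma fit over 14 pairs. The fasted comparisons, shown as a description, lie between 0.82 and 1.78, and the high-fat over control ratios between -0.22 and 0.42.

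An exact sign-flip permutation test on the 5 direct pairs gave two-sided p = 0.0625 for Nsg2 and for H1f2, the smallest value that 5 pairs allow. It gave 0.1875 for Ncstn and 0.9375 for St3gal5 and Crcp. After adjustment over these 5 tests the lowest was 0.15625, and this design could not have reached 0.05.

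The fitted ratio of fasted over control was 1.78 ± 0.22 for Ncstn, 1.55 ± 0.18 for St3gal5, 1.39 ± 0.09 for Nsg2, 1.23 ± 0.11 for H1f2 and 0.91 ± 0.08 for Crcp (SE). Fasted over high-fat ratios were 1.36 ± 0.21, 1.29 ± 0.17, 1.61 ± 0.09, 0.85 ± 0.10 and 0.82 ± 0.08 in the same order. These comparisons share the fasted mice. In the fit the fasted over high-fat ratio is the fasted over control ratio less the high-fat over control ratio. Nsg2 stood further above high-fat than above control livers, and the other 4 stood further above control livers. This restates the signs of the fitted high-fat over control ratios, none of which passed, and adds no further result.

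Ratios added around a closed ring of mice should come to 0 save for measurement error. The sum includes the fasted over control pairs from which the genes were chosen, and a choice by a high direct ratio favours a high direct route, so its size is a description with no test. The sum over 12 pairs was 0.44 in size for Nsg2, 1.0 for H1f2, 1.02 for Crcp, 1.31 for Ncstn and 3.32 for St3gal5, against a median of 0.48 over the named genes. Only 0.354% of the named genes had a larger sum than St3gal5. Its direct fasted over control ratio in the ring was 1.89 ± 0.45, whereas the route through high-fat livers, fasted over high-fat plus high-fat over control, gave 1.06 ± 0.49 (SDs of the steps combined, 4 pairs a step). The direct route was also the larger for Ncstn (1.96 against 1.64), H1f2 (1.41 against 1.16), Crcp (1.00 against 0.74) and Nsg2 (1.42 against 1.31). With arrays scaled to a common spread, the direct route stayed the larger for St3gal5 (1.46 against 1.07) and became the smaller for the other 4. The size of the St3gal5 ratio therefore depends on which hybridisations are used, and the cause was not tested.

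**Figure D4:**
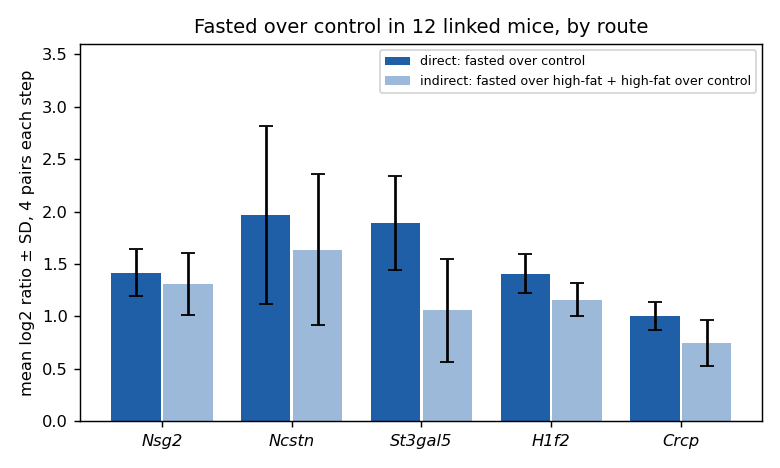
Fasted over control ratio (log2) in the 12 mice of the ring for each gene, measured directly (dark bars) or as the sum of 2 steps through high-fat livers (light bars), with SD over 4 pairs a step. The routes differ most for St3gal5, 1.89 against 1.06.

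Dye effects, the part of a ratio that follows Cy5 whatever the liver, took no part in the choice. Of the 5 genes 0 passed the limma threshold and 2, St3gal5 and Crcp, had an unadjusted p below 0.05, whereas 16.7% of the named genes passed. The effect was 0.19 ± 0.08 for St3gal5 (adjusted p = 0.0857), 0.16 ± 0.07 for Crcp (adjusted p = 0.114), 0.14 ± 0.07 for Nsg2 (adjusted p = 0.174), 0.10 ± 0.09 for Ncstn (adjusted p = 0.395) and 0.08 ± 0.06 for H1f2 (adjusted p = 0.355). Without high-fat mouse 6 the St3gal5 effect was 0.24 and passed (limma adjusted p = 0.0456). The average of a swap cancels such an effect.

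Across the 14 pairs, values of the genes correlated with r from 0.631 (Nsg2 with Ncstn) to 0.902 (St3gal5 with Crcp). The group differences themselves raise these values, and the pairs share mice and arrays. After removal of the group means, Ncstn and Crcp still correlated with r = 0.651, St3gal5 and Crcp with r = 0.62, Ncstn and St3gal5 with r = 0.557 and St3gal5 and H1f2 with r = 0.541. H1f2 stood at 0.355 with Crcp and at 0.211 with Ncstn. Nsg2 stood at -0.17 with Ncstn, -0.17 with St3gal5, 0.03 with H1f2 and 0.27 with Crcp.

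The named genes most like each of the 5 over the 14 ratios differed from gene to gene. For Nsg2 they were Aldoa, an aldolase of glycolysis (r = 0.965), Ldhb, a lactate dehydrogenase subunit (r = 0.96), and Cyp4a14, a fatty acid hydroxylase (r = 0.944). For Ncstn they were Ucp3, a mitochondrial uncoupling protein (r = 0.931), Alpl, an alkaline phosphatase (r = 0.928), and Slc26a2, a sulfate transporter (r = 0.926). St3gal5 was most like Tbxas1, thromboxane synthase (r = 0.951), Pigp, of GPI anchor synthesis (r = 0.942), and Grn, progranulin (r = 0.942). H1f2 was most like Apoa4, an apolipoprotein (r = 0.914), Caln1, a calcium-binding protein (r = 0.904), and Tcap, a muscle titin-binding protein (r = 0.889). Crcp shared Ldhb with Nsg2 (r = 0.939) and was otherwise most like Bnip3, a mitophagy receptor (r = 0.937), and H2-Ke6 (r = 0.929). Apoa4, the gene most like H1f2, passed in high-fat over control livers, at 1.88 ± 0.18 (limma adjusted p = 1.31e-05), beside 4.62 ± 0.18 in fasted over control livers. H1f2 itself did not pass in high-fat over control livers. The other genes most like it, Caln1 and Tcap, stood there at -0.03 ± 0.08 and 0.15 ± 0.16. Of the genes most like Nsg2, Aldoa stood at -0.29 ± 0.11, Ldhb at -0.16 ± 0.12 and Cyp4a14 at -0.55 ± 0.23 in high-fat over control livers. Aldoa and Cyp4a14 did not pass (limma adjusted p = 0.554 and 0.709), and neither did Nsg2. The r values were taken over all 14 ratios, so the group differences and the high-fat over control pairs enter them. A sign shared with Nsg2 there follows in part from how these genes were picked and is a description.

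Most other genes of the same pathways did not pass in fasted over control livers. The 5 genes were chosen for a high ratio there, so their standing above the listed genes is a description. Across 7 lists, 86 genes beside the 5 were measured, of which 3 rose and 7 fell in fasted over control livers by limma after Benjamini-Hochberg adjustment. That is 11.6%, near the 9.69% of all named genes called in either direction, and so no result about the lists. In high-fat over control livers 0 of the 86 were called and 6 had an unadjusted p below 0.05.

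**Figure D5:**
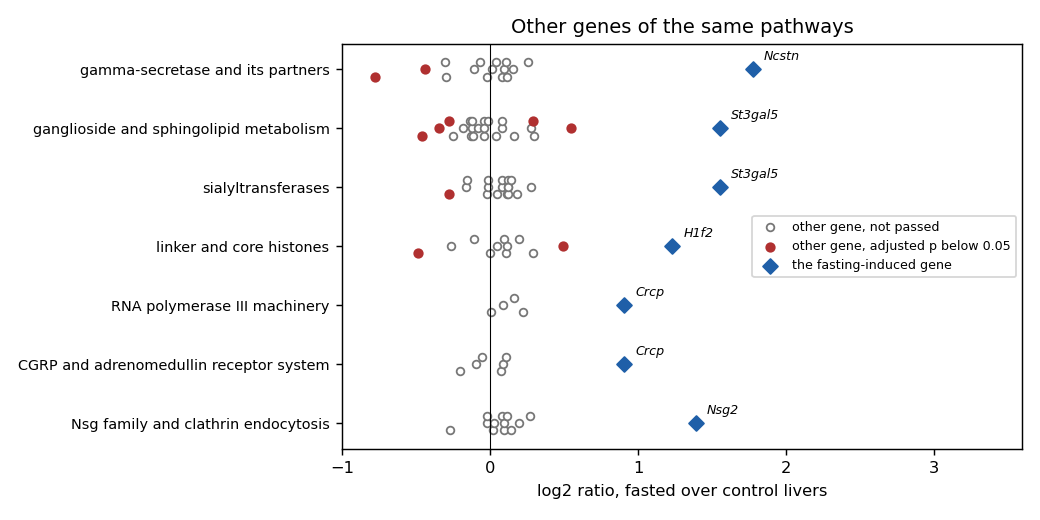
Log2 ratio of fasted over control livers for the other measured genes of 7 pathway lists, with filled circles for genes at an adjusted p below 0.05 in limma, open circles for the rest and diamonds for the 5 genes. The other genes lie between -0.78 and 0.55, and the diamonds, chosen for a high ratio, between 0.91 and 1.78.

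Of 15 partners of gamma-secretase 0 rose and 2 fell, with a median log2 ratio of 0.01 beside 0.01 over all named genes. Psen2, which encodes presenilin 2, a catalytic subunit of the same protease as nicastrin, fell by 0.44 ± 0.10 (adjusted p = 0.00678). That call was lost without fasted mouse 13 (limma adjusted p = 0.0508). Lrp1, a large endocytic receptor that gamma-secretase can cut, fell by 0.78 ± 0.12 (adjusted p = 0.000488). On the first arrays of the swaps alone Psen2 stood at -0.28. The substrates App (0.08 ± 0.15) and Notch1 (-0.07 ± 0.10) and the sheddases Adam10 (0.10 ± 0.08) and Adam17 (-0.02 ± 0.08) did not pass.

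Of 23 other genes of ganglioside and sphingolipid metabolism 2 rose and 3 fell, with a median of -0.04. B4galnt1, which turns GM3 into GM2 and so acts directly after St3gal5, rose by 0.55 ± 0.09 (adjusted p = 0.000872). On first arrays alone B4galnt1 stood at 0.26 and the call was lost (limma adjusted p = 0.115), and on second arrays alone it stood at 0.84. Gm2a, the activator protein for breakdown of GM2, fell by 0.46 ± 0.09 (adjusted p = 0.00221). Degs1, which completes ceramide, rose by 0.29 ± 0.09 (adjusted p = 0.0483), a call kept in only 1 of 15 omissions of a mouse, that of control 3. Degs1 stood at 0.51 on first arrays and at 0.07 on second arrays, where the call was lost (limma adjusted p = 0.806). Smpd1, the acid sphingomyelinase, fell by 0.28 ± 0.07 (adjusted p = 0.0126), a call lost without control 4 and without fasted mice 11 and 13, and on second arrays, where it stood at -0.18 (limma adjusted p = 0.35). Sgpl1, which degrades sphingosine phosphate, fell by 0.35 ± 0.09 (adjusted p = 0.0295), a call lost without controls 3, 4 and 5, high-fat mice 8, 9 and 10 and fasted mice 11, 13 and 14. Sgpl1 passed on neither array of the swaps alone, at -0.20 and -0.49 (limma adjusted p = 0.0638 and 0.102). Ugcg, which makes the glucosylceramide from which lactosylceramide is built, stood at -0.13 ± 0.08 (adjusted p = 0.409), and the lactosylceramide synthase B4galt6 at 0.16 ± 0.08 (adjusted p = 0.29).

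Among 17 other sialyltransferase genes, with the sialic acid carrier Slc35a1 counted in, 0 rose and 1 fell, with a median of 0.08. The sister enzymes St3gal1 (-0.16 ± 0.08), St3gal2 (0.12 ± 0.08), St3gal3 (0.12 ± 0.15), St3gal4 (-0.02 ± 0.08) and St3gal6 (0.12 ± 0.09) did not pass. St3gal5, chosen for a high ratio, stood at 1.55 ± 0.18. St6galnac6 fell by 0.28 ± 0.08 (adjusted p = 0.042), a call kept only without control 1, high-fat mouse 10 or fasted mouse 15 among 15 omissions. Its ratio was -0.68 on first arrays alone and 0.13 on second arrays alone.

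Of 11 other histone and chromatin protein genes 1 rose and 1 fell, with a median of 0.09. The replacement histone gene H3f3b rose by 0.49 ± 0.10 (adjusted p = 0.004), and H2az1, a variant of H2A, fell by 0.49 ± 0.07 (adjusted p = 0.000418). On first and second arrays alone H3f3b stood at 0.83 and 0.15, and the call was lost on the latter (limma adjusted p = 0.652). H2az1 passed on both, at -0.23 and -0.74. The other gene for the same H3.3 protein, H3f3a, stood at -0.11 ± 0.09, and the testis linker histone H1f6 at 0.09 ± 0.13, and neither passed. Of 6 markers of dividing cells, whose replication histones rise with DNA synthesis, 0 rose and 0 fell, with a median of -0.13 and 0 at an unadjusted p below 0.05. Their mean ratio ran from -0.19 to 0.06 over the 4 direct pairs.

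Of 4 other genes of RNA polymerase III transcription with a named spot, 0 passed and 1, the La protein gene Ssb (0.22 ± 0.09, adjusted p = 0.139), had an unadjusted p below 0.05. The subunits shared with RNA polymerase I, Polr1c (0.16 ± 0.08) and Polr1d (0.08 ± 0.07), did not pass, and most subunits of the enzyme are not analysed here. Of 6 genes of the CGRP and adrenomedullin receptors 0 passed, and 0 had an unadjusted p below 0.05. The receptor Calcrl stood at -0.09 ± 0.12 and its partner Ramp1 at 0.07 ± 0.19.

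Of 12 other genes of the Nsg family and of clathrin endocytosis 0 passed and 2 had an unadjusted p below 0.05, with a median of 0.09. Nsg1, the closest relative of Nsg2 in the list, stood at -0.02 ± 0.14 (95% interval -0.32 to 0.28, limma adjusted p = 0.966). Nsg2, chosen for a high ratio, stood at 1.39 ± 0.09. Of 12 markers of neurons and neuroendocrine cells, in which Nsg2 is best known, 0 passed and 2 had an unadjusted p below 0.05, with Gap43 at -0.17 ± 0.07 and Syn1 at 0.16 ± 0.07. Their median was 0.02 and their mean ratio ran from -0.12 to 0.28 over the 4 direct pairs.

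Markers of some other cell types moved with the fast. Over all named genes 4.15% were called higher and 5.54% lower. Of 6 Kupffer cell markers 4 fell and 0 rose (median -0.44), and of 3 erythroid markers 2 fell. Their mean ratio over the 4 direct pairs ran from -0.75 to -0.19 and from -0.74 to 0.00. In such bulk RNA fewer cells of a type and less RNA per cell cannot be told apart. Of 6 endothelial markers 2 fell, the only measured stellate cell and fibroblast marker rose, and of 4 lymphocyte and 2 cholangiocyte markers 0 passed. Of 5 hepatocyte markers 1 rose, Apoa1 (0.37 ± 0.09), and 1 fell, Ttr (-0.74 ± 0.13). The part of these shifts in the ratios of the 5 genes was not tested.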

How the data were processed

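For each array the authors deposited a log ratio of the dyes at every spot, taken as log2 from the values, since no source states the base. Per the submitters' processing notes limma was used, in an unstated version. The sources used here do not name the background correction, normalization or filters. Array medians of the deposited log2 values ran from -0.23 to 0.35 and array SDs from 0.29 to 1.26.

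The members, lists and tests were chosen with earlier results of these data known. Spots were named through the platform annotation: 9758 of 16416 carried 1 symbol, 0 several and 6658 none, and all 4799 symbols matched RefSeq by Entrez number. Spots of a gene were averaged, unnamed spots kept singly, which made 11457 features. The arrays of a swap were turned and averaged into 1 replicate. A swap reverses the ratio, so its raw arrays ought to have r below 0 over features. This held for 4 of 14 swaps, and for 8 after subtraction of the dye effect averaged over the remaining swaps (r from -0.37 to 0.43), so the relative sign of some arrays is weakly supported.

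The 14 ratios were fitted by generalised least squares with limma 3.58.1 in R 4.3.3, with pairs that share a mouse correlated (share of variance between mice 18.0%, trimmed mean; 12 residual and 4.51 prior degrees of freedom) and Benjamini-Hochberg adjustment over all features (threshold 0.05). The fit was tested on simulated data. The mice are numbered as separate animals in the labels. Named were the 5 genes, every gene of the 7 lists past the threshold, fixed partners, and the 3 genes most alike to each by Pearson r; other list genes named were chosen after their values were seen. Alternatives covered direct pairs, mouse variance, centring, scaling, single arrays, spots or features, array weights and the omission of each mouse or of the chain.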

Additional observations from a re-analysis of the deposited data

Results flagged for a closer look

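Among 30 groups of pairs or mice, 2 held a value far from the rest by Dixon's test, and chance alone flags about 1 group in 20. The Nsg2 ratio of high-fat mouse 6 over control 1 was -0.0086, while the other 4 high-fat over control pairs lay between -0.33 and -0.26. That pair belongs to the separate chain of 3 mice. The St3gal5 level of control 2 was -0.36, while the other 3 control mice of the ring lay between 0.07 and 0.16.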

How the results depend on the processing

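Over 28 alternatives the 5 genes kept a ratio above 0 in fasted over control and in fasted over high-fat livers, and none passed in high-fat over control livers, where the lowest adjusted p over the alternatives was 0.0711 for H1f2. The fasted over control ratio of Crcp was 1.18 on first arrays alone and 0.63 on second arrays alone, and its high-fat ratio turned to -0.049 on second arrays. St6galnac6 turned to 0.13 there. The St3gal5 dye effect was 0.24 and passed without the chain, and ranged from 0.13 to 0.24 over omissions of a mouse. The direct minus indirect ratio turned to -0.51 for Nsg2, -0.44 for Ncstn, -0.26 for H1f2 and -0.094 for Crcp with scaled arrays, and to -0.18 for Nsg2 on first arrays. The cause was not tested.

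All 10 pathway calls were lost with direct pairs alone and with a mouse share of 0.9. Named genes called in fasted over control livers numbered 465, against 57 with direct pairs, 79 with a share of 0.9, 1493 on first arrays and 254 to 526 over omissions of a mouse (272 without control 4, 281 without control 5, 254 without fasted 11 and 282 without fasted 13). The split of 199 higher and 266 lower became 236 and 191 with scaled arrays, 967 and 526 on first arrays and 121 and 296 on second arrays. In high-fat over control livers 16 were called (3 higher, 13 lower), against 6 with direct pairs, 32, 7 and 2 with shares of 0, 0.5 and 0.9, 30 with centred arrays (10 higher, 20 lower), 52 with scaled arrays (24 higher, 28 lower), 170 on first arrays (78 higher, 92 lower), 37 with named genes alone, 40 with array weights and 5 to 36 over omissions. No paired analysis was possible because no replicate number is shared between groups, which concerns a block on numbers only. Mice hybridised together are already paired within each ratio. Brightness over background could not be assessed from ratios, and few pairs limit the precision.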
